A study of Mus musculus with 12 samples.

Results

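The TREM receptors, their adaptor DAP12 and the kinase Syk were described as 7 genes: Trem1, Trem2, Trem3, Treml2, Treml4, Tyrobp (which encodes DAP12) and Syk. They were chosen on their levels in these same arrays, by gene name, with every probe of each name. Their values are therefore given as a description, without p-values. Which of them passed the threshold in the fit of all genes is stated, but nothing is read from it. The 7 genes had 9 probes, of 55681 probes with 34787 gene names on the array. The study measured total RNA from 12 cell samples, 1 array each, in 4 groups of 3. RAW264.7 ABHD5-KD cells are mouse macrophage-like cells transfected with a short hairpin RNA against Abhd5, which encodes an activator of the triglyceride lipase ATGL, and RAW264.7 control cells were transfected with the vector PLKO. The other 6 samples were of the murine colon tumour line CT-26, primed by ABHD5-KD RAW cells or by control RAW cells, and are called KD-primed and control-primed here. All 12 samples were cell lines. The manner of priming, any removal of macrophages from the tumour cells, and the origin of the 3 samples of a group (separate cultures or 1 clone) are not given in the labels, so a p-value reflects only how far these samples spread.

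TREM receptors are immunoglobulin-domain proteins on the surface of myeloid cells. Several have almost no signalling tail of their own and pair through a charged residue in the membrane with DAP12, whose cytoplasmic motif is phosphorylated by Src-family kinases and then recruits Syk. Syk signals on through phospholipase C gamma, PI3-kinase, Vav and NFAT proteins. In macrophages and microglia Trem2 is known for binding lipids, lipoproteins and dying cells, Trem1 for amplifying inflammatory responses, and in osteoclast precursors DAP12 is known for cell fusion and bone resorption.

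On mouse chromosome 17 the probes of the 5 receptor genes lay within 106 kb, in the order Trem1, Trem3, Treml4, Treml2 and Trem2 (mm9, the build of the probe coordinates in the files). The Trem1 probe lay at chr17:48385849-48385908, the Trem3 probe at chr17:48397990-48398049, the Treml4 probe at chr17:48413947-48414006 and the Trem2 probe at chr17:48491537-48491596. The Syk probes lay on chromosome 13, at chr13:52744088-52744147 and chr13:52738924-52738983. Which exon or UTR each probe lies in was not determined, since no annotation of that build was used here.

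The sequences of a pair of probes are shown because each 60-base probe spans more of the genome than its length, so that it reads joined exons. The Tyrobp probe covers 1728 bases of chromosome 7 (chr7:31200651-31202378, mm9) and the Treml2 probe used in the fit covers 241 bases of chromosome 17 (chr17:48448517-48448757, mm9). Their sequences, with no part marked, read:
Tyrobp: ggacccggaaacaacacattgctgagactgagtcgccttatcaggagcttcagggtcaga
Treml2: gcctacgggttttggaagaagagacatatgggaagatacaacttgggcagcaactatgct

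The Trem1 probe holds 12 copies in a row of the triplet GTT, in bases 17 to 52 of its 60, and was the only probe of 55681 with a run that long. A 30-base stretch from the start of that run is shown, because its low complexity bears on how the Trem1 values can be read, with the repeat in capitals:
Trem1: gtGTTGTTGTTGTTGTTGTTGTTGTTGTTG

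Promoter sequence was at hand for Trem1, Treml4 and Trem2, neighbours whose levels in RAW264.7 cells differed in opposite directions or hardly at all. The 250 bases before each start (RefSeq, GRCm38.p6, plus strand, a build other than that of the probes) are shown with motifs in capitals. These are GAGGAA, the core bound by the myeloid factor PU.1, and TGANTCA, a loose AP-1 pattern with any base at N. Matches on either strand are marked (TTCCTC is GAGGAA on the other strand). The stretches are chr17:48232489-48232738 for Trem1, chr17:48264045-48264294 for Treml4 and chr17:48346151-48346400 for Trem2:
Trem1: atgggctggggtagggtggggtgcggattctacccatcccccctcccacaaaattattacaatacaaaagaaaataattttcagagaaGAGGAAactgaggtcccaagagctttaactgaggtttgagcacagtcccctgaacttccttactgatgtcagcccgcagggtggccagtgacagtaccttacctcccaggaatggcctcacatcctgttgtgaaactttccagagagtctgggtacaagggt
Treml4: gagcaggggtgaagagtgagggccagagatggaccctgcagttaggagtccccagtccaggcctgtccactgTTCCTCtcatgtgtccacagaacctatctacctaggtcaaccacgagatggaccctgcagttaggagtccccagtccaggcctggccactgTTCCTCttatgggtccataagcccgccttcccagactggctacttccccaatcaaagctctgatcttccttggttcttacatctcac
Trem2: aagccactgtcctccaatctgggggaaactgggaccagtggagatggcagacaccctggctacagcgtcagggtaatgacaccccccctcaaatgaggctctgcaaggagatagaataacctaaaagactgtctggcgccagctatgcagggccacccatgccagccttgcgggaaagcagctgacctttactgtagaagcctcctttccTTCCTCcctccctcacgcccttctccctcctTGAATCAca

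GAGGAA stood 1 time before Trem1, 162 bases before the start, and 2 times before Treml4, 178 and 87 bases before it. Before Trem2 it stood 1 time, 40 bases before the start, and TGANTCA, there as TGAATCA, stood 9 bases before the start, with no overlap between the motifs. Of 32851 such windows in the RefSeq table, 23.3% held GAGGAA and 6.75% held TGANTCA. For Syk the table had a pair of windows on chromosome 13, not shown: one held no GAGGAA and the other held it 9 bases before the start. A match is a description of the letters only, and both the gene that was higher and the gene that was lower held GAGGAA.

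Levels are given as the log2 processed signal minus the array's 75th percentile, so 0 is the brightness of the spot at that percentile. Levels of different probes are set against each other only in choosing a gene's brightest probe and within the marker lists, to whose sums the brightest probes add most. Spots well above background made up 56.54 to 77.29% of an array, and r across probes was 0.974 to 0.991 within groups. RAW264.7 control replicates 1 and 2, at 56.54 and 57.87%, were on slide 1. Control replicate 3 and the 3 knockdown arrays, at 69 to 73.03%, were on slide 2, and all CT-26 arrays on slide 3. The KD-primed arrays, at 67, 63.79 and 59.26%, all lay below the control-primed arrays, at 72.97, 77.29 and 68.27%. Their 75th percentile intensities were lower too, at 1816 to 3053 against 3370 to 3722. Counts of CT-26 arrays well above background for 1 probe are therefore not read as a difference between the primed groups. Abhd5 itself was lower in RAW264.7 ABHD5-KD cells on each of its 3 probes, at 40, 40.8 and 58.3% of the control signal. In CT-26 cells, which carried no knockdown of their own, its 3 probes differed by 0.06 ± 0.17, -0.31 ± 0.19 and -0.49 ± 0.39 (log2, SE, n = 3 per group). All 12 macrophage markers were well above background on every array of both RAW264.7 groups.

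Trem3 had the widest difference of the 7 genes. It is an activating, DAP12-paired receptor of mouse macrophages, for which humans have a pseudogene. Its level was 3.60, 3.46 and 3.38 in RAW264.7 ABHD5-KD replicates 1 to 3, against -2.50, -3.34 and -1.95 in control replicates 1 to 3. The 3 knockdown arrays lay close together and far above every control array. The difference was 6.07 ± 0.36 on the log2 scale (limma, SE, n = 3 per group), a 67.3-fold higher signal, and it was 5.43 against control replicate 3 alone, the control array on the slide of the knockdown arrays. In CT-26 cells Trem3 was well above background on none of the KD-primed arrays (-5.95, -6.02 and -5.20) and on 1 of the control-primed arrays (-6.38, -5.83 and -6.32). The CT-26 values overlapped, and the gene was not fitted there.

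Treml4, a receptor that in mice binds dying cells and sensitises macrophages to RNA sensed by TLR7, had the second widest difference. Its level was -2.83, -2.63 and -2.42 in RAW264.7 ABHD5-KD cells, against -5.20, -4.59 and -5.82 in control cells, where 1 of 3 arrays was well above background. All 3 knockdown arrays lay above all 3 control arrays. The difference was 2.57 ± 0.34 (log2, SE, n = 3 per group) and 3.19 against control replicate 3, with 2 of the 3 control values not well above background. In CT-26 cells the level was -5.39, -5.21 and -5.34 after priming by ABHD5-KD cells, against -4.87, -5.01 and -5.20 after priming by control cells, with 2 and 3 arrays well above background. There the groups did not overlap either, with the KD-primed arrays lower by a margin of 0.01, and the difference was -0.29 ± 0.17 (SE).

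Trem2 went the other way in RAW264.7 cells. Its level was 4.08, 4.18 and 4.01 in ABHD5-KD cells, against 4.61, 5.06 and 4.48 in control cells, so every knockdown array lay below every control array. The difference was -0.63 ± 0.22 (log2, SE, n = 3 per group), and the median of all 25306 genes tested was -0.303 on the same scaling, which left Trem2 at -0.33 relative to that median. With the median of all probes subtracted in place of the 75th percentile the difference was -0.40. It was -0.27 with quantile normalization, -0.20 with normexp and -0.39 against control replicate 3 alone. In CT-26 cells Trem2 was higher in KD-primed cells, at -1.40, -1.06 and -0.84, against -2.20 on each of the 3 control-primed arrays. All 6 CT-26 arrays were well above background, the groups did not overlap, and the difference was 1.11 ± 0.20 (SE), with a range of 0.98 to 1.26 over the other settings. On this scaling Trem2 was thus lower in knockdown macrophages and higher in the tumour cells primed by them. The RAW264.7 difference was not called, and 39.6% of all genes did not overlap as lower there. The difference between the RAW264.7 and CT-26 changes was not tested, since the levels chose the gene.

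Trem1 did not separate the groups in either line. Its level was 3.77, 3.92 and 3.98 in RAW264.7 ABHD5-KD cells, against 3.41, 2.94 and 4.24 in control cells. The control arrays spread over 1.30 log2 units and enclosed the knockdown arrays. The difference was 0.36 ± 0.35 (log2, SE), and it was -0.35 against control replicate 3, the highest control array. In CT-26 cells the level was 2.56, 2.78 and 2.94 in KD-primed cells, against 2.43, 2.84 and 3.05 in control-primed cells, a difference of -0.01 ± 0.22 (SE). All 12 arrays were well above background for this probe, and whether its repeat contributed signal was not tested.

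Treml2, a receptor of B cells, T cells and myeloid cells that is not known to need DAP12, was dim. Its junction probe was at -3.52, -3.61 and -3.98 in RAW264.7 ABHD5-KD cells, against -4.17, -4.06 and -3.86 in control cells. The groups overlapped, with a difference of 0.33 ± 0.21 (log2, SE). In CT-26 cells it was at -5.08, -5.00 and -5.37 in KD-primed cells, with 2 of 3 arrays well above background, against -5.63, -5.81 and -5.49 in control-primed cells, with 3 of 3. The KD-primed arrays lay above the control-primed arrays, with a difference of 0.49 ± 0.19 (SE) that was 0.15 after normexp background correction. The other Treml2 probe (chr17:48451800-48451859) was not well above background on any of the 12 arrays.

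Tyrobp, the DAP12 adaptor on which Trem1, Trem2 and Trem3 depend at the cell surface, was bright in RAW264.7 cells and did not separate the groups. Its level was 5.57, 5.89 and 5.64 in ABHD5-KD cells, against 5.89, 4.77 and 6.07 in control cells. Control replicate 2 was the lowest array and the other control arrays were as high as the knockdown arrays or higher. The difference was 0.12 ± 0.37 (log2, SE), and -0.37 against control replicate 3. In CT-26 cells Tyrobp was well above background on none of the KD-primed arrays (-5.99, -5.43 and -5.94) and on all 3 control-primed arrays (-5.84, -4.49 and -5.59). The values overlapped, with a difference of -0.48 ± 0.37 (SE). As a bound between group means the signal was 1.12-fold lower in KD-primed cells. In this and the other bounds the dimmest well-measured signal of each array stands in where the probe's own was lower. The bound makes no allowance for spread. Tyrobp also entered the CT-26 fit only through the control-primed group, so no decrease is read from these values.

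Syk, the kinase that docks on phosphorylated DAP12, was read by 2 probes. The brighter, used in the fit, was at 1.46, 1.53 and 1.95 in RAW264.7 ABHD5-KD cells, against 1.13, 0.48 and 1.01 in control cells. All 3 knockdown arrays lay above the control arrays, with a difference of 0.77 ± 0.26 (log2, SE), and of 0.63 against control replicate 3. The other probe, at 0.53, 0.01 and -0.28 in ABHD5-KD cells against -0.15, 0.39 and -0.38 in control cells, did not separate them, with a difference of 0.13 ± 0.31 (SE). In CT-26 cells the first probe was at -0.21, -0.04 and -0.49 after priming by ABHD5-KD cells, against -0.37, -0.32 and -0.23 after priming by control cells, a difference of 0.06 ± 0.18 (SE). The other probe was dim there, at -5.21, -5.25 and -4.71, against -4.53, -4.83 and -5.12, with 1 and 3 arrays well above background. The Syk probes therefore disagree both on the knockdown difference and on how far the cell lines lie apart.

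**Figure D1:**
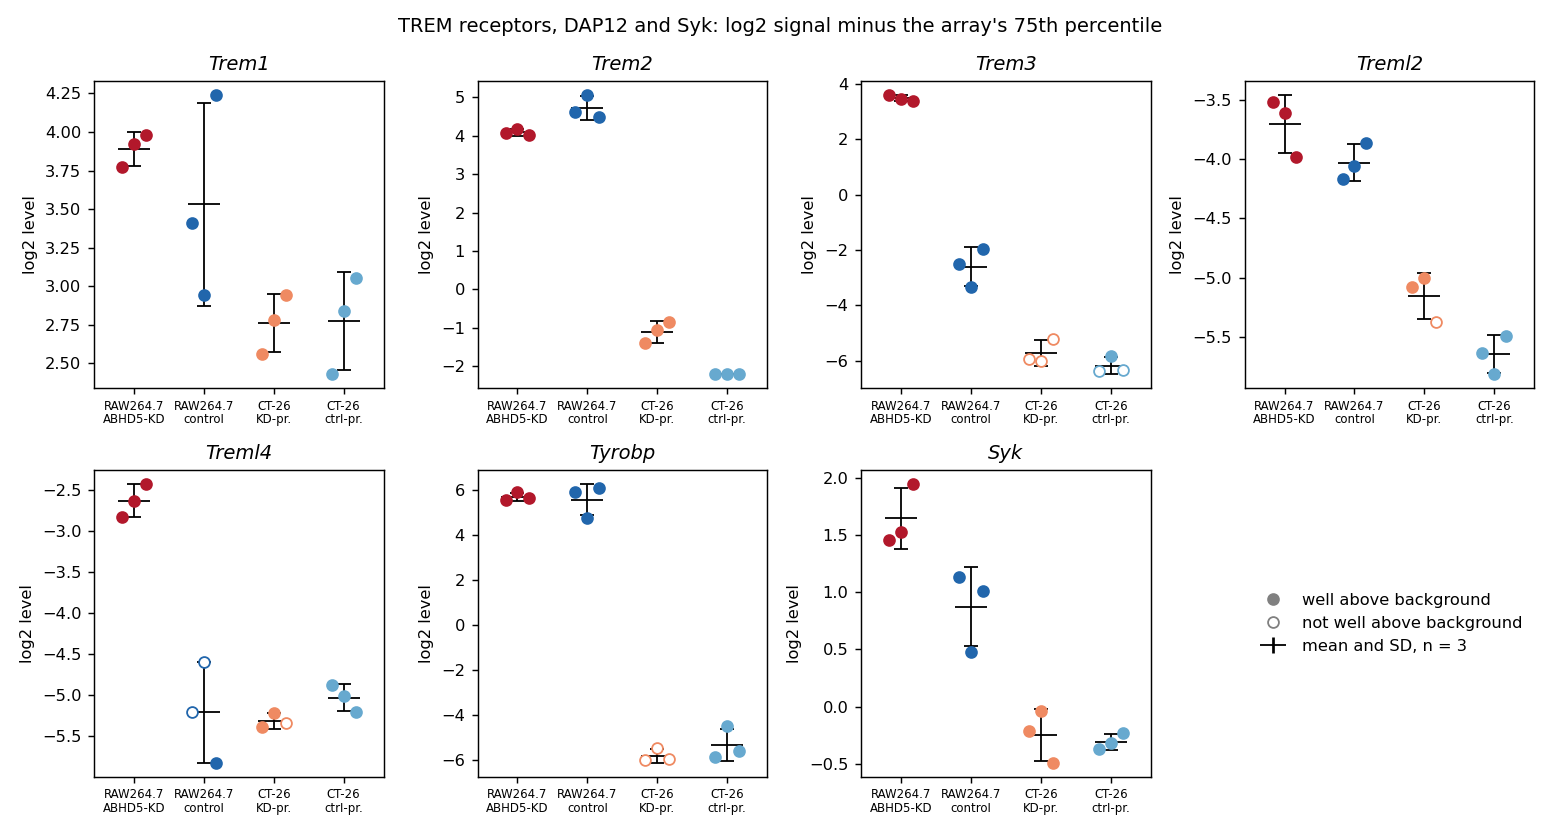
Log2 level (signal minus the array's 75th percentile, vertical axis, a scale of its own in each panel) of the 7 genes in RAW264.7 ABHD5-KD, RAW264.7 control, CT-26 KD-primed (KD-pr.) and CT-26 control-primed (ctrl-pr.) samples, with points for arrays, open where not well above background, and bars for the mean and SD (n = 3). Trem3 sits between 3.38 and 3.60 in ABHD5-KD arrays and between -3.34 and -1.95 in control arrays, while the Tyrobp groups overlap within RAW264.7 cells.

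In RAW264.7 cells 3 of the 7 members (Trem3, Treml4 and Syk) were past an adjusted p of 0.05 as higher and 0 as lower in the limma fit of all genes (4 were past neither), where 7.93% of 25306 genes were called higher and 15.1% lower. By non-overlap of the 3 knockdown and 3 control arrays, 3 members were higher and 1 lower, where 12.5% of genes did not overlap as higher and 39.6% as lower. In CT-26 cells 1 of the 6 members tested (Trem2) was past the threshold as higher and 0 as lower, where 2.92% of 24824 genes were called higher and 3.25% lower. There 2 members did not overlap as higher and 1 as lower, where 24.3% of genes did not overlap as higher and 11.4% as lower. The members were chosen on these levels, and Treml4 entered the RAW264.7 fit only through the group in which it was high, so nothing is read from these counts. The median difference over the members tested was 0.36 in RAW264.7 cells and 0.02 in CT-26 cells, beside -0.303 and 0.102 over all genes tested.

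**Figure D2:**
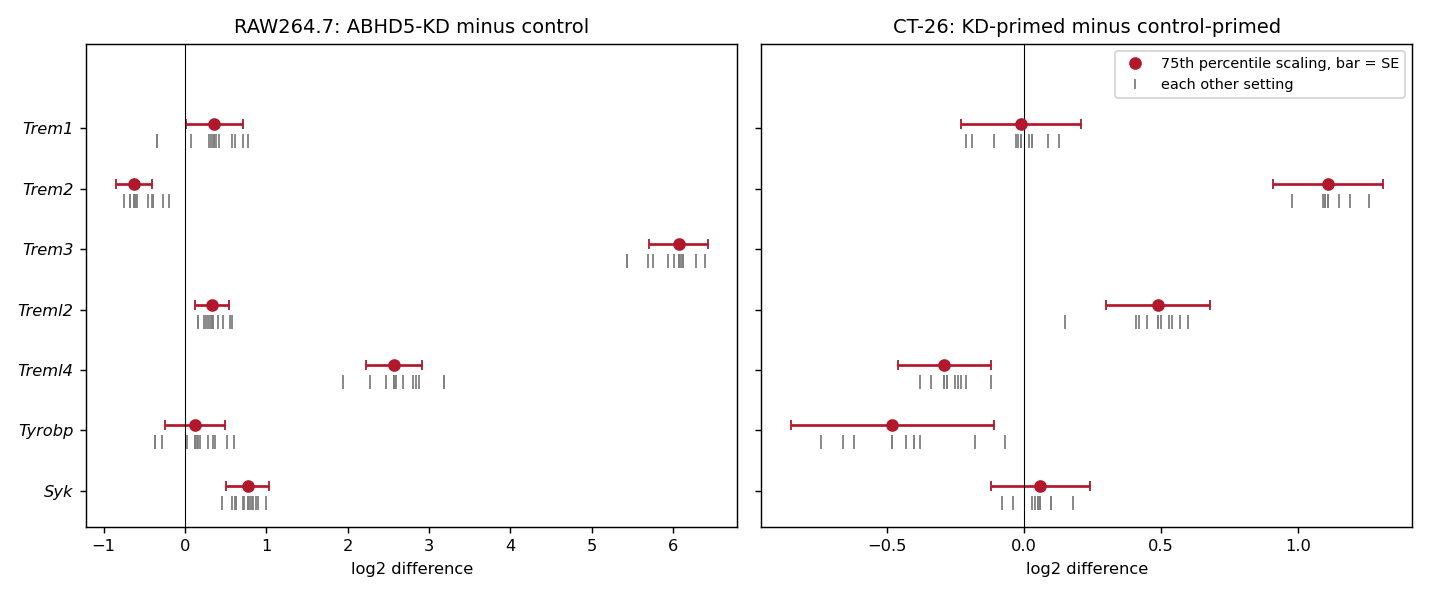
Log2 difference of each member, ABHD5-KD minus control in RAW264.7 cells (left) and KD-primed minus control-primed in CT-26 cells (right, on a narrower horizontal scale), as red points with SE, and as grey ticks under every other setting of scaling, background, probe, slide or left-out replicate. In RAW264.7 cells Trem3 stays between 5.43 and 6.39 and Treml4 between 1.94 and 3.19, whereas Trem1 runs from -0.35 to 0.77 and Tyrobp from -0.37 to 0.60. Trem3 was not fitted in CT-26 cells.

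The cell lines differed most at the adaptor. Tyrobp was 10.88 log2 units higher in RAW264.7 control cells than in CT-26 control-primed cells, and at least 2310-fold higher in ABHD5-KD cells than in KD-primed cells, where it was not well above background. Trem2 was 5.19 units higher in RAW264.7 ABHD5-KD cells than in KD-primed cells, and 6.92 units higher in RAW264.7 control cells than in control-primed cells. The Trem1 probe differed by 1.13 and 0.76 units in the same comparisons, the smallest differences among members measured on all arrays of all 4 groups. The fitted Syk probe differed by 1.90 and 1.18 units and the other Syk probe by 5.14 and 4.78. All CT-26 arrays were on a slide of their own, so cell line and slide cannot be told apart, and no test was made. In the order of the 4 groups, the neighbouring ones that overlapped were the 2 CT-26 groups for Trem3, Tyrobp and the fitted Syk probe, the 2 RAW264.7 groups for Tyrobp and Treml2, and every neighbouring pair for Trem1. For Treml4 the control RAW264.7 group overlapped both CT-26 groups, and only the ABHD5-KD group stood apart. For Trem2 no neighbouring groups overlapped.

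Macrophage markers were examined in the CT-26 arrays beside these values, since RNA of the priming cells could be among theirs. Of 12 markers, 9 were well above background on all 3 arrays of each CT-26 group. Adgre1, the gene of a macrophage surface antigen, and Spi1, which encodes PU.1, were well above background on none of the 6 arrays, and Laptm5 on 0 of 3 KD-primed and 1 of 3 control-primed arrays. The summed level of the markers, on the linear scale in units of the array's 75th percentile, was 57.2 to 75 in KD-primed and 55.6 to 61.1 in control-primed cells, beside 222 to 257 in RAW264.7 ABHD5-KD and 191 to 253 in RAW264.7 control cells. Itgam, bright in both lines on the brightest of its 3 probes, made up most of the CT-26 sum. Without it the sum was 8 to 10.5 in KD-primed and 9.78 to 10.4 in control-primed cells. In RAW264.7 cells it was then 172 to 190 in ABHD5-KD and 130 to 156 in control cells. The Itgam probes disagreed on the knockdown difference in RAW264.7 cells, with -0.38 for the probe used and 1.52 and 1.53 for the others. The 9 measured markers did not move one way between the CT-26 groups (log2 difference, KD-primed minus control-primed). Aif1 was highest at 1.23 and not called, with scattered KD-primed arrays (SD 1.7, beside 0.28 in control-primed cells). Ptprc was at 0.44, not called, and Cd68 lowest at -0.83, called lower. In these bulk samples fewer cells of a type and less RNA per cell cannot be told apart. Of 9 epithelial markers, 6 were well above background on all 3 arrays of each CT-26 group, beside 7 in RAW264.7 ABHD5-KD and 2 in RAW264.7 control cells. That count thus does not set the lines apart. Their summed level was 26.1 to 34 in KD-primed and 32.4 to 36.7 in control-primed cells, beside 1.02 to 1.1 in RAW264.7 ABHD5-KD and 1.34 to 1.89 in RAW264.7 control cells. Krt20 was the brightest, at 4.59 ± 0.18 in KD-primed and 4.80 ± 0.07 in control-primed cells. Cdh1 and Vil1 were well above background on none of the 6 CT-26 arrays, and Epcam on 0 of 3 KD-primed and 1 of 3 control-primed arrays. The part of either marker list in the CT-26 values was not tested.

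**Figure D3:**
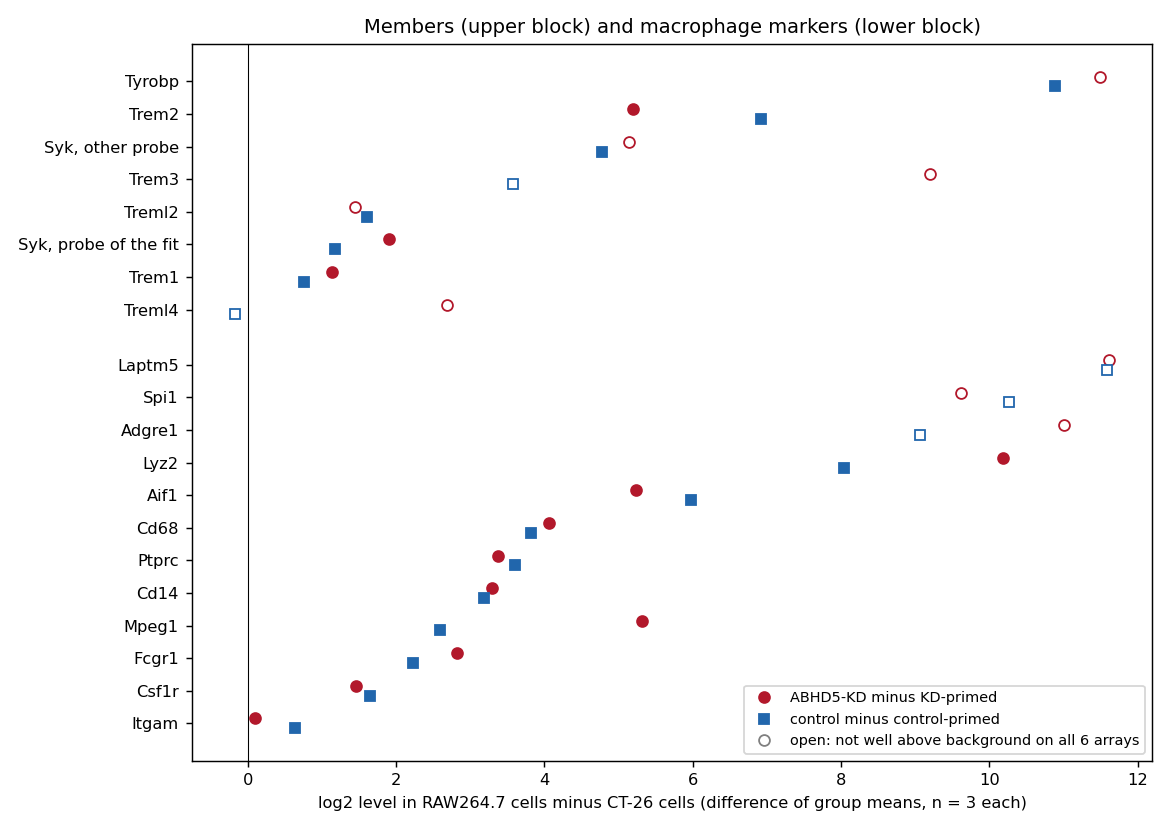
Difference of group mean log2 levels, RAW264.7 minus CT-26 cells (horizontal axis, n = 3 per group), for the members with both Syk probes (upper block) and 12 macrophage markers (lower block), for ABHD5-KD minus KD-primed (red circles) and control minus control-primed (blue squares), open where a group of the pair was not well above background on all its arrays. Tyrobp lies at 11.49 and 10.88, near Laptm5 at 11.61 and 11.59, and Trem1 at 1.13 and 0.76.

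Other genes of the pathway were taken as 4 lists of 88 genes, none of them members, of which 87 were on the array and 86 were tested in RAW264.7 cells. There 23 were higher and 7 lower at an adjusted p of 0.05 (limma, Benjamini-Hochberg over all genes), or 34.9% of those tested, beside the 7.93% and 15.1% of all genes. The lists were chosen with earlier results of these data known. These counts, and those for CT-26 cells and the interaction below, are therefore no independent support for the pathway. The falls depended on the scaling: of the 23 rises 22 (all but Src) were called with median, quantile and normexp scaling alike, and of the 7 falls 2, those of Csk and Lat. With the slide as a block, which rests on 1 control array beside the knockdown arrays, 15 of the 23 rises and 0 of the 7 falls were called, although all 30 kept their sign. Cd300lb, Lyn, Fyn, Src, Ptprj, Cblb and Ctnnb1 were among the rises not called then. Of the 23 rises, 19 were well above background on all 3 control arrays, and the other 4 (Sirpb1b, Pilrb1, Sirpb1a and Oscar) entered the fit only through the ABHD5-KD group in which they were high, so they had to differ and their fitted values are against partly unmeasured controls.

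Among 20 tested adaptors and adaptor-linked receptors, 9 were higher, 1 was lower and 10 were past neither, with a median difference of 0.62, and 5 of the 9 rises were measured on every control array. Sirpb1b and Pilrb1, activating receptors that pair with DAP12, rose by 4.21 ± 0.19 and 4.06 ± 0.27 (limma adjusted p 5.86e-06 and 4.68e-05). Sirpb1b had a level of -1.31 ± 0.06 in ABHD5-KD cells and -5.52 ± 0.23 in control cells (SD, n = 3), and both genes were well above background on 1 of 3 control arrays, so these differences and p-values support no size of change. Clec4e, the Mincle receptor for mycobacterial glycolipids, which signals through the Fc receptor gamma chain, rose by 3.08 ± 0.36 (adjusted p 0.000959). Fcgr3, an activating receptor for IgG that uses the same chain, rose by 2.92 ± 0.20 (adjusted p 5.34e-05). The other rises, named beyond the rule to complete the count, were Sirpb1a, Cd300e, Fcgr4, Oscar and Cd300lb. Treml1, the TREM-like receptor of platelets, fell by 0.65 on this scaling (SE 0.20, adjusted p 0.0491), and was not called with median or quantile scaling. Of the adaptor chains themselves Tyrobp is given above, and Fcer1g and Hcst, singled out after their values were seen, were past the threshold in neither direction, at -0.15 ± 0.19 (adjusted p 0.567) and -0.55 ± 0.18 (adjusted p 0.0559). Clec5a, another DAP12-paired receptor, also singled out after its values were seen, was well above background in ABHD5-KD cells only, at least 1.54-fold higher, and missed the threshold (limma adjusted p 0.0578). It was called with quantile normalization, with normexp and with the slide as a block, which rests on 1 control array beside the knockdown arrays. Clec5a entered the fit only through the ABHD5-KD group in which it was high, against unmeasured controls. Neither those calls nor its p-values therefore support a size of change.

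Among 25 Src-family and Tec-family kinases, phosphatases and inhibitory receptors, 11 were higher, 2 were lower and 12 were past neither, with a median difference of 0.39. Fgr, a myeloid Src-family kinase, rose by 3.08 ± 0.31 (adjusted p 0.000411). The inhibitory receptors Lilrb4a, Sirpa and Cd300lf, which recruit the phosphatases SHP-1 or SHP-2, rose by 2.69 ± 0.20, 2.53 ± 0.18 and 2.06 ± 0.23 (adjusted p 7.55e-05, 7.16e-05 and 0.000744). Lyn, Fyn, Src, Pilra, Ptprj and Cblb, named beyond the rule, were among the other rises, and the 4 probes of Pilra disagreed, 1 of them at -1.02. Csk, which holds Src-family kinases inactive, fell by 0.96 (SE 0.17, adjusted p 0.0084). Dok2, an inhibitory adaptor, fell by 0.62 (SE 0.19, adjusted p 0.0445), and was not called with median or quantile scaling. Activating kinases and inhibitory receptors were thus among the rises together.

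Among 27 tested effectors downstream of Syk, 3 were higher, 2 were lower and 22 were past neither, with a median difference of -0.05. Nfatc1, the transcription factor that directs osteoclast formation, had a level of 0.38 ± 0.18 in ABHD5-KD cells and -2.95 ± 0.20 in control cells (SD, n = 3). It rose by 3.33 ± 0.19 (SE, adjusted p 1.96e-05), and by 2.51 on its other probe. Vav3, a guanine nucleotide exchange factor, rose by 1.23 ± 0.21 (adjusted p 0.00699), and Ctnnb1 (beta-catenin) by 1.07 ± 0.17 (adjusted p 0.00402, and 0.0624 with the slide blocked). The adaptors Lat and Grb2 fell by 0.99 (SE 0.18, adjusted p 0.00937) and 0.61 (SE 0.17, adjusted p 0.0363), and Grb2 was not called with median scaling.

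Of 14 genes for TREM ligands, co-receptors and shedding proteases, 0 were higher and 2 were lower, with a median difference of -0.36. Clu (clusterin), a lipoprotein ligand of Trem2, fell by 0.90 (SE 0.24, adjusted p 0.0326), and Adam17, a protease that cleaves Trem2 from the cell, fell by 0.69 (SE 0.19, adjusted p 0.035). Neither was called with median or quantile scaling.

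Osteoclast markers moved alongside these genes, and RAW264.7 cells are known to be able to form osteoclast-like cells. All 8 markers were well above background on every ABHD5-KD array, and 4 of 8 on every control array. Control replicates 1 and 2, on slide 1, had fewer spots well above background, so these counts are not read as a difference. Their summed linear level was 48.9 to 50.1 in ABHD5-KD and 8.91 to 12 in control cells. Acp5 (TRAP) had a level of 4.66 ± 0.09 in ABHD5-KD and 0.65 ± 0.22 in control cells (SD, n = 3), and Ctsk (cathepsin K) 2.88 ± 0.24 and -7.41 ± 1.28, the control value being well above background on none of the 3 arrays. Dcstamp, needed for cell fusion, had a level of 2.69 ± 0.11 in ABHD5-KD and 2.96 ± 0.31 in control cells, and Itgb3 -2.78 ± 0.32 and -2.16 ± 0.42, so the markers did not all move one way. The part of such cells in the pathway counts was not tested.

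In CT-26 cells 73 of the listed genes were tested, 0 were higher and 4 were lower (limma), or 5.48%, beside 2.92% and 3.25% of all genes. They were Cblb, an E3 ubiquitin ligase that restrains tyrosine kinase signalling (-1.05 ± 0.21, adjusted p 0.0273), Pik3r1, the regulatory subunit of PI3-kinase (-1.03 ± 0.21, adjusted p 0.0286), Siglech, a DAP12-paired lectin (-0.97 ± 0.21, adjusted p 0.033), and Cd300a, an inhibitory receptor (-0.94 ± 0.22, adjusted p 0.0407). Siglech had a level of 3.74 ± 0.40 in KD-primed and 4.71 ± 0.11 in control-primed cells (SD, n = 3), but its other probes differed by -0.15 and 1.24, so its probes disagreed in direction. Cd300a was not called with median centring (adjusted p 0.0565), nor Cblb with normexp (adjusted p 0.057). The list as a whole had a median difference of 0.10, beside 0.102 over all genes. The count fell to 0 when KD-primed replicate 3, control-primed replicate 2 or control-primed replicate 3 was left out (13, 12 and 12 genes at an unadjusted p under 0.05), and to 2 without KD-primed replicate 2.

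The change in RAW264.7 cells differed from that in CT-26 cells for 32 of 87 listed genes (limma interaction over 12 arrays), 22 with the higher change in RAW264.7 cells and 10 with the lower, or 36.8%, beside 31% of 26887 genes in either direction. The widest differences upwards were those of Pilrb1 (3.54 ± 0.46, adjusted p 0.000402), Nfatc1 (3.13 ± 0.25, adjusted p 1.07e-05) and Sirpb1b (3.08 ± 0.40, adjusted p 0.000459). Of the 22, 7 (Pilrb1, Sirpb1b, Sirpb1a, Clec4e, Fgr, Sirpa and Lilrb4a) were not measured well enough in CT-26 cells to be tested there, so they have no CT-26 change to compare, while the other 15, and the 10 with the lower change, were tested in both lines. Nfatc1 was well above background on all 12 arrays. The widest downwards were those of Csk (-1.32 ± 0.22, adjusted p 0.00204), Clu (-1.29 ± 0.32, adjusted p 0.0138) and Lat (-1.17 ± 0.27, adjusted p 0.00971), beside a median of -0.384 over all genes. Cblb was higher in RAW264.7 ABHD5-KD cells (1.03 ± 0.24) and lower in KD-primed CT-26 cells.

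**Figure D4:**
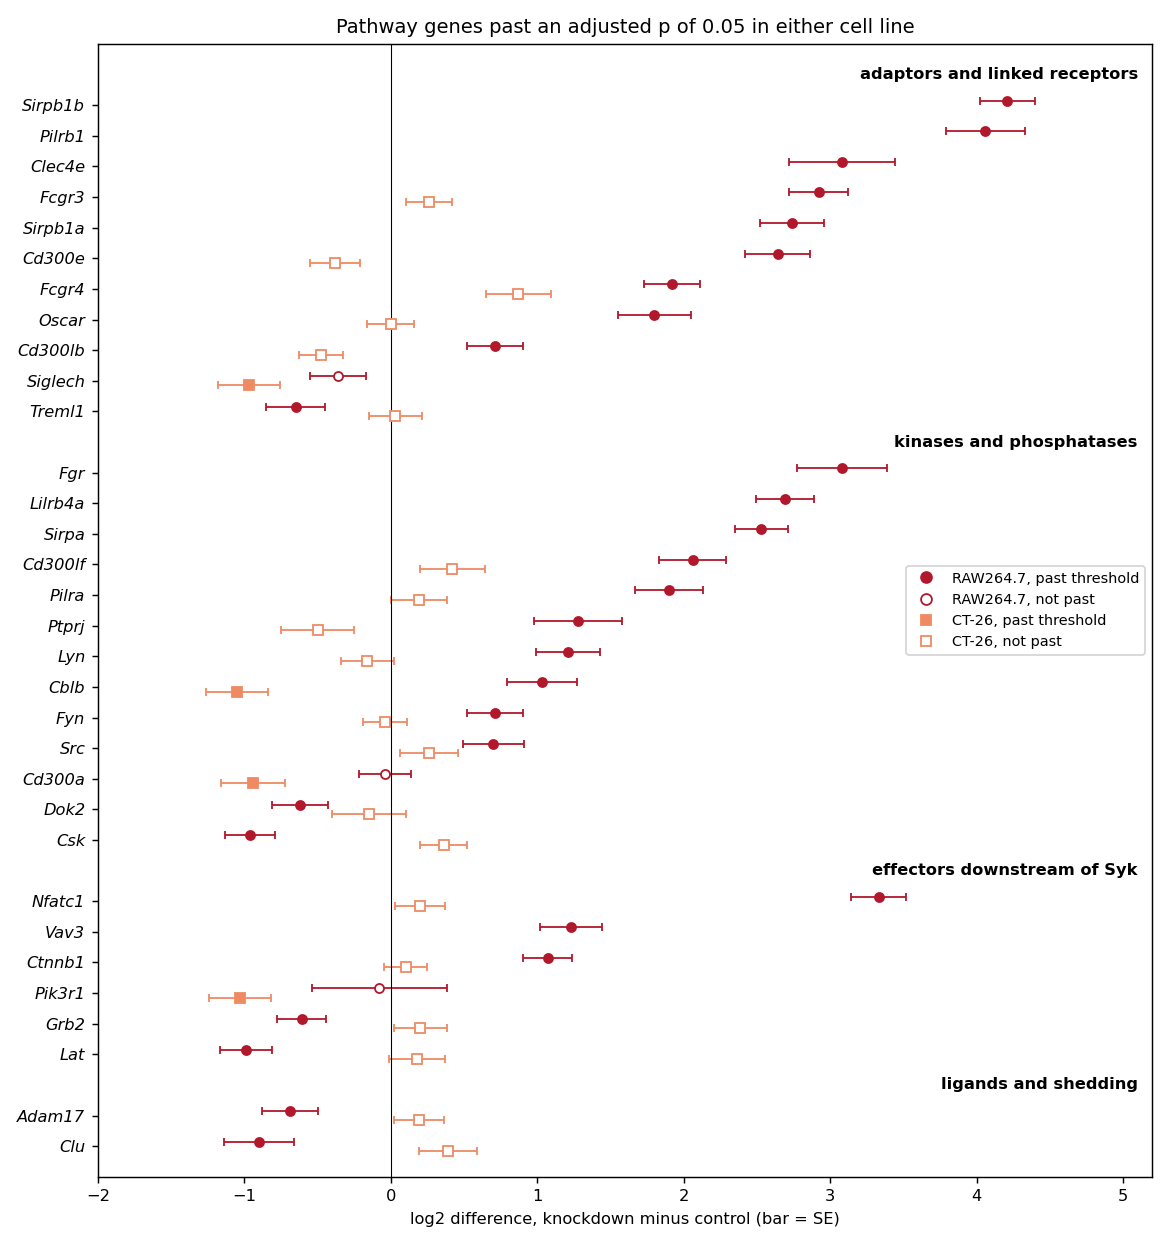
Log2 differences with SE of the listed pathway genes (all but 1) past an adjusted p of 0.05 in either cell line, ABHD5-KD minus control in RAW264.7 cells (red circles) and KD-primed minus control-primed in CT-26 cells (orange squares, missing where the gene was not tested), filled where past the threshold. In RAW264.7 cells Sirpb1b, Pilrb1, Nfatc1, Clec4e and Fgr lie above 3, while the falls end at -0.99, and in CT-26 cells the 4 filled squares lie between -1.05 and -0.94.

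The genes whose levels ran most like each member's over the 12 arrays were taken from 15794 genes by Pearson's r, as a description. The points share 2 cell lines, so for members other than Treml4 and Trem3 r mostly reflects the step between them. For Treml4 the RAW264.7 control mean (-5.20) lay between those of the CT-26 groups (-5.03 and -5.32). Its r therefore rests on the 3 ABHD5-KD arrays against all the others. For Trem3 the knockdown step (6.07) was wider than the step between the control groups of the lines (3.58). Trem3 ran most like Ppfibp2 (0.996), Ambp (0.996) and Hk3 (0.995), which differed by 6.29, 4.41 and 2.83 between RAW264.7 ABHD5-KD and control cells. Treml4 ran most like Plpp3 (0.982), Krtap19-4 (0.975) and Pla2g2d (0.971), which were well above background on every RAW264.7 ABHD5-KD array and no control array, at least 18.9-fold, 10.6-fold and 4.38-fold higher. Trem2 ran most like Spef1l, Cybb and Emc9 (0.998 each), which were lower in RAW264.7 ABHD5-KD than in control cells by differences of -0.90, -1.22 and -0.29. Tyrobp ran most like Myo7a, Fam167b and Grtp1 (0.998 each), with differences of -0.05, 0.16 and -0.14. Syk ran most like Lyn (0.985) and Fyn (0.982), kinases of the same pathway, and Tm4sf19 (0.98). Trem1 ran most like Myod1 (0.969), Muc15 (0.967) and Prps1 (0.965), and Treml2 like Cd33 (0.983), Aopep (0.982) and Isg20l2 (0.98).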

How the data were processed

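Total RNA of 12 samples was labelled with Cy3 and hybridised to 1-colour Agilent arrays, per the labels' protocols. The deposited scanner files, read with Agilent Feature Extraction 10.7.3.1 per the file headers, hold the intensity of each spot, and their processed signal is corrected for background. The authors' deposited table holds log2 values for RAW264.7 samples (column medians -4.02 to -3.532) and linear intensity values for CT-26 samples (medians 131.7 to 276), its scale being read from the values. Of the CT-26 columns 1 matched its own array and 5 another replicate of its group, so the table served as an alternative only.

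Control and outlier spots were left out, processed signals were log2-transformed, the 75th percentile of the array served as its zero, and repeated spots of a probe were averaged. Names came from accessions for 26762 probes, symbols for 3819 and synonyms for 639 (RefSeq, GRCm38.p6); Syk stands in the files under an older name. A gene was represented by its brightest probe among those above background throughout a group of 3 arrays, and tested where that held in either group compared. Two-sided limma tests (version 3.58.1, R 4.3.3, lmFit with eBayes, Benjamini-Hochberg, threshold 0.05) were run on 6 arrays per cell line, and the interaction on 12. The fit was tested on simulated data. With 3 arrays per group, array number sets the precision.

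Members and lists were chosen with earlier results of these data known. Named genes were all members, per list up to 4 rises and 4 falls in RAW264.7 cells and 2 and 2 in CT-26 cells by size among those past the threshold, 3 interaction genes per direction and the 3 genes most like each member; genes named beyond this are marked where they stand. Other scalings, normexp with an offset of 50, no filter, other probe rules, slide and replicate blocks and left-out replicates were the alternatives. Proteins were not used here, and 1 listed gene is counted but not reported by name.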

Additional observations from a re-analysis of the deposited data

Results flagged for a closer look

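The interaction test passed its threshold for the 6 pathway genes named here (RAW264.7 change minus CT-26 change, log2, limma): Pilrb1 (3.54), Nfatc1 (3.13) and Sirpb1b (3.08) upwards, and Csk (-1.32), Clu (-1.29) and Lat (-1.17) downwards. Pilrb1 and Sirpb1b were well above background on 1 and 0 of the 6 CT-26 arrays, so no change could be measured there and their values are no comparison of changes. Among members, all 3 RAW264.7 ABHD5-KD arrays were lower than control for Trem2 (-0.63, not called) while all 3 KD-primed CT-26 arrays were higher than control-primed (1.11). The difference between these changes was not tested. Treml4 was at 2.57 in RAW264.7 cells and at -0.29 ± 0.17 (SE) in CT-26 cells. The CT-26 groups were 0.01 apart there, the value was not called, and 2 of 3 KD-primed arrays were well above background. That difference was not tested either. No group was large enough for a search for single outlying samples.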

How the results depend on the processing

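The count of pathway genes called in RAW264.7 cells, 30, was 19 with no filter on dim probes, 16 with the slide as a block and 19 within slide 2 alone, and was 17 to 34 when 1 replicate was left out (19 without ABHD5-KD replicate 2, 17 without ABHD5-KD replicate 3). The count of 4 in CT-26 cells was 0 with no filter (limma, 20 at an unadjusted p under 0.05), and 0 to 6 with 1 replicate left out. The interaction count of 32 was 15 with the slide as a block, and 24 to 37 with 1 replicate left out. The causes were not tested. Scaling moved the split over all genes in RAW264.7 cells from 2008 higher and 3823 lower to 2396 and 1406 with median centring, 2141 and 2001 with quantile normalization and 2353 and 2415 with normexp, with medians of -0.0808, -0.0975 and -0.081; in CT-26 cells median centring gave 1021 higher and 650 lower, against 724 and 808. Replicate numbers did not pair the samples (correlations of deviations of same-numbered samples between -0.169 and 0.118), and a replicate block gave 26, 4 and 31 calls. In RAW264.7 cells Trem3, Treml4, Treml2 and Syk stayed higher and Trem2 lower in all 15 other settings, while the sign of Trem1 changed in 2 (slide block and slide 2 alone, -0.35) and that of Tyrobp in 3 (the same, -0.37, and without control replicate 2, -0.28). In CT-26 cells Trem2 and Treml2 stayed higher and Treml4 and Tyrobp lower in all 13, and Syk kept its sign in 11 and Trem1 in 8. Signal near background limits Treml4, Treml2 and the CT-26 values of Tyrobp and Trem3, and RAW264.7 control replicates 1 and 2, on slide 1, had the fewest spots above background.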
